A study of Mus musculus with 8 samples.

Results

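Replication timing of the whole X chromosome was compared between wt and SmcHD1 mut MEFs (mouse embryonic fibroblasts) on Repli-seq scores made from all reads, without sorting them by allele. All 500 kb bins of chromosome X whose unsplit-read score differed from 0 in both genotypes were taken, which gave 336 of 343 bins. The 7 bins left out were at 0 in both tracks and held no sequenced base in the genome assembly, and they were the first 6 bins and the last. The 336 scored bins formed an unbroken stretch from 3.0 to 171.0 Mb (GRCm38, the mm10 build) and held the starts of all 948 protein-coding genes that the GENCODE M21 annotation gives for the chromosome.

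Both lines were clonal female MEFs from an F2 cross of FVB (M. m. domesticus) and castaneus mice. In both, the inactive X chromosome (Xi) was of castaneus and the active X chromosome (Xa) of FVB origin. The wt line was clone Wt2A1, and the SmcHD1 mut line was clone Mut5A6, which carries the MommeD1 null mutation of SmcHD1. Asynchronous cultures were stained with a Hoechst DNA dye and sorted by DNA content into G1 and S fractions, with 2 samples of each fraction per genotype, or 8 samples in all. The deposited data hold 1 score per bin and genotype, read here as pooled over these samples. No error between replicates can thus be given, and no test between genotypes was possible. The read depth behind a bin is unknown, and since each genotype was 1 clone, genotype and clone cannot be told apart. Repli-seq reads DNA, so the cell type could not be checked against marker genes.

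A chromosome is copied in large domains, each with its own time in S phase, and DNA copied early is more abundant in a sorted S fraction than DNA copied late. Gene-rich domains of autosomes and of Xa usually replicate early and gene-poor ones late, whereas Xi is known to replicate mostly in mid to late S phase. SmcHD1 is a non-canonical SMC protein that is enriched on Xi and takes part in the silencing of many of its genes during development. A score of unsplit reads blends both X chromosomes, and a difference in it can come from either. The share of Xa and Xi copies in the reads of each line was not measured here and need not be equal, so its part in mut minus wt was not tested. A higher score means earlier replication. The labels describe it as the ratio of S-phase to G1-phase reads, but the values lie on both sides of 0, so the transformation behind the unsplit tracks is not known and score units are used here without a conversion to S-phase time.

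Base composition differed between the bins that scored higher and those that scored lower in mut, and 4 stretches of 200 bases are shown for that reason. They come from the bins with the highest and the lowest mut minus wt difference and with the highest and the lowest mut score. In each bin the stretch shown was, among windows set 1000 bases apart and free of annotated repeats, the one with a GC content nearest to that of the whole bin. All are the plus strand of the GRCm38 reference, 5′ to 3′, with CpG dinucleotides in capitals.
Highest difference, chrX:52270001-52270200, intergenic: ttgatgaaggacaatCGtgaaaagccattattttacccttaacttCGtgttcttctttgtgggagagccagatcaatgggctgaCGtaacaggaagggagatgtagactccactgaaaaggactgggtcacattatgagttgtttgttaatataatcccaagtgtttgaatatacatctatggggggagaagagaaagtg
Lowest difference, chrX:132660001-132660200, intergenic: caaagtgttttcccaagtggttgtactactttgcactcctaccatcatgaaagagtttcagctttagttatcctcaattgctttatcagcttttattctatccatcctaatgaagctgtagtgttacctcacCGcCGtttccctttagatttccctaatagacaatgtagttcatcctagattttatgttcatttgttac
Highest mut score, chrX:74258001-74258200, in an intron of Emd: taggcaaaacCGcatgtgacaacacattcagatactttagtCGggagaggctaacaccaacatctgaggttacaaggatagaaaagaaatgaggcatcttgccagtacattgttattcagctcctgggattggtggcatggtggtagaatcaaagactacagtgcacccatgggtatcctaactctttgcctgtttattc
Lowest mut score, chrX:118581001-118581200, intergenic: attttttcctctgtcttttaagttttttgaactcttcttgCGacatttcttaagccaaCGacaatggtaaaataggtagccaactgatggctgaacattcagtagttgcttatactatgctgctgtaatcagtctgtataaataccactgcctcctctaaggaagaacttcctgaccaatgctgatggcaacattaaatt
The GC content of these stretches was 41%, 37%, 44% and 37.5% in this order, and they held 3, 2, 2 and 2 CpG dinucleotides. The GC content of the whole bins was 41.1%, 36.8%, 43.9% and 37.3%.

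The X chromosome kept the same broad layout of early and late domains in wt and mut, with a wider range of scores in mut. The wt score averaged 0.0124 ± 0.125 (mean ± SD over 336 bins) and ranged from −0.199 to 0.467. The mut score averaged 0.0165 ± 0.168 and ranged from −0.262 to 0.433. Pearson's r between the tracks was 0.898 (Spearman's rho 0.886) over 336 bins, which are not independent since neighbours share a domain. As a guide to the noise in single bins, the SD of a bin's departure from the mean of its neighbours was 0.0544 in wt, 0.0677 in mut and 0.0518 in mut minus wt. These figures also hold true changes between neighbouring bins, and the spread between cultures is not in them.

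Taking a score above 0 as early, 161 bins were early in wt and 160 in mut. Of the 336 bins, 148 (44.0%) were early in both genotypes and 163 (48.5%) late in both. The bins early in both held 698 gene starts, or 4.72 per bin, and the bins late in both 201, or 1.23 per bin. Early bins were thus gene-rich and late bins gene-poor in both genotypes. Only 25 bins lay on different sides of 0 in wt and mut, 13 of them early in wt alone and 12 early in mut alone. The wt score of these bins was at most 0.0870 away from 0. Among the bins early in mut alone were those of Trpc5, a calcium-permeable cation channel gene (−0.0765 in wt, 0.00487 in mut), and of Rbmx, a splicing factor gene (−0.0737 and 0.0824). Those early in wt alone included the bin of Sh2d1a, an adaptor of lymphocyte signalling (0.0477 in wt, −0.0395 in mut).

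**Figure D1:**
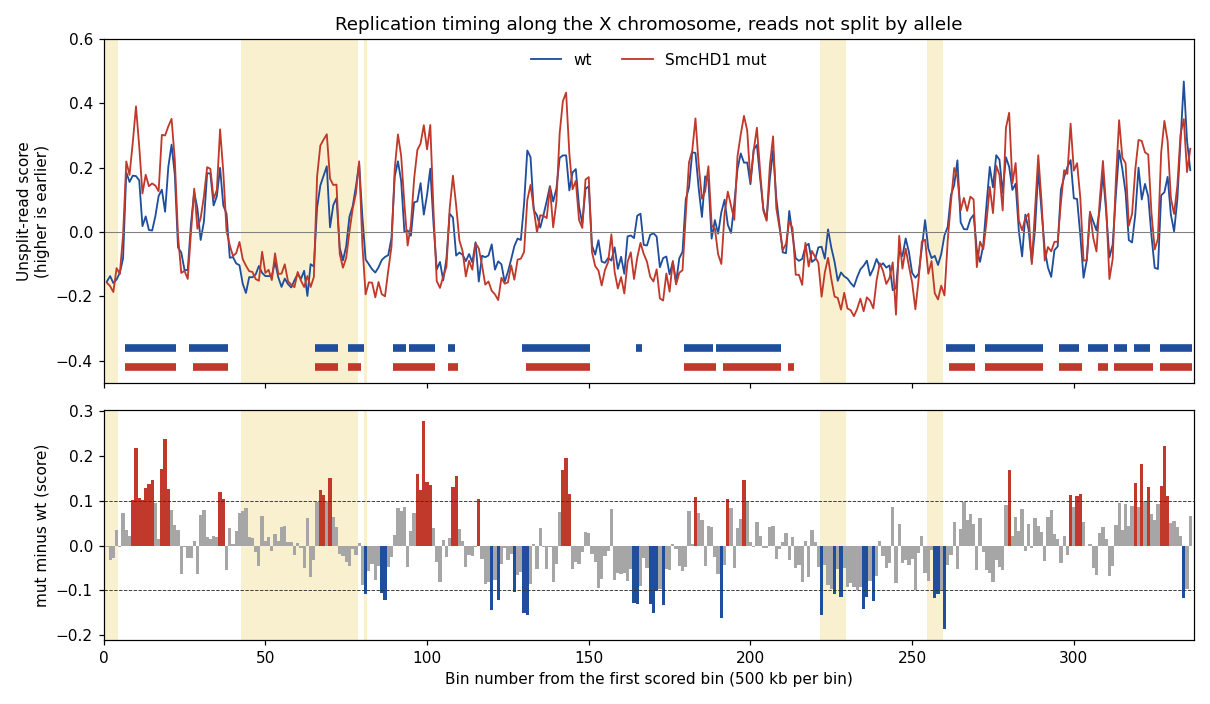
Unsplit-read score of the 336 scored bins in wt (blue) and SmcHD1 mut (red) against bin number (top) and mut minus wt (bottom), where bars over 0.1 are red, bars under −0.1 blue and the rest grey, with dashed lines at these limits. Thick lines under the tracks mark the early domains of each genotype, yellow bands the stretches with poor allelic scores. Both tracks peak over the same domains, and the red and blue bars form groups along the chromosome.

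Domains were drawn as runs of at least 2 bins with the same sign after a running median of 3 bins. In wt this gave 18 early domains over 82 Mb and 16 late domains over 85 Mb. In mut there were 16 early domains over 81 Mb and 16 late domains over 87 Mb. The median length of early domains was 3.75 Mb in wt and 5 Mb in mut. The wt domains took in 334 bins, against 336 in mut. The wt bins at 49.5 to 50.0 Mb and 97.0 to 97.5 Mb were left out as runs of 1 bin. Their own wt scores were above 0, at 0.00424 and 0.0366. The first parts the wt early domains from 47.5 to 49.5 and from 50.0 to 54.0 Mb. The second parts those from 92.5 to 97.0 and from 97.5 to 107.5 Mb. These gaps raise the number of early domains in wt and make them shorter. Early domains held 8.73 genes per Mb in wt and 8.96 in mut, and late domains 2.66 and 2.55. Both tracks have means near 0, so a limit of 0 by itself tends to give similar early and late totals in both lines.

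Under this rule, which left out the wt bin at 97.0 Mb, the longest early domain of wt ran from 67.5 to 78.0 Mb. It starts at Gm1140, Gm14692, 4933436I01Rik, Fmr1 and Fmr1nb. Its mean score was 0.134 in wt and 0.129 in mut, but mut differed from wt in opposite directions within it. Over its first 10 bins, with 26 genes and a mean GC content of 39.6%, the mean score was 0.109 in wt and 0.0548 in mut, and mut was above wt in 2 of 10 bins. Over the next 5 bins, from 72.5 to 75 Mb, with 70 genes and a GC content of 43.9%, the mean was 0.194 in wt and 0.296 in mut, and mut was above wt in 4 of 5 bins. In the last 6 bins the means were 0.127 and 0.112. These divisions were drawn after the values were seen.

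The early domain from 6.0 to 14 Mb, which begins with Nudt11, AU022751, Nudt10, Bmp15 and Shroom4 and holds 102 genes, differed in 1 direction on the raw scores. All of its 16 bins scored higher in mut, 10 of them by over 0.1, and its mean was 0.121 in wt and 0.231 in mut. With mut scaled to the mean and SD of wt, 11 of the 16 bins were higher and 5 lower, with 3 higher by over 0.1. The early domain from 97.5 to 107.5 Mb, which holds Yipf6, Stard8, Efnb1 and the X inactivation centre, averaged 0.131 in wt and 0.148 in mut. From 139.0 to 148.0 Mb, starting at Serpina7, the means were 0.105 and 0.121. From 16 to 22.0 Mb, where Maoa and Maob, the monoamine oxidase genes, and Ndp lie, they were 0.0934 and 0.119. These last 3 domains held both bins with higher and bins with lower mut scores. Their mean raw differences were 0.0166, 0.0165 and 0.0258, below the 0.0367 of all 161 bins early in wt. With mut scaled to wt, the mean difference of those 161 bins was −0.00438.

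On the raw scores, the mean of mut was higher than that of wt in 14 of the 18 early domains of wt. It was lower in 10 of the 16 late ones. In 7 early domains every bin scored higher in mut and in 1 every bin scored lower. Among late domains there were 3 in which every bin scored lower and 2 in which every bin scored higher. The largest mean difference of an early domain was 0.127, from 162.0 to 164.5 Mb (0.123 in wt, 0.250 in mut). The early domains from 50.0 to 54.0 Mb (0.0894 and 0.212), from 6.0 to 14 Mb and from 35.5 to 39.0 Mb (0.114 and 0.213) followed in this order. The lowest mean difference of an early domain was −0.110, at 85.0 to 86.0 Mb. Among late domains the mean difference ran from −0.0703 to 0.0738. With mut scaled to the mean and SD of wt, 73 of the 161 bins early in wt were higher and 88 lower. Of the 175 bins late in wt, 87 were then higher and 88 lower.

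The longest late domain ran from 107.5 to 133.0 Mb, 25.5 Mb with 55 genes, of which Tbx22, Tent5d, 2610002M06Rik, Gm732 and Gm379 come first. Its mean score was −0.0859 in wt and −0.142 in mut. Mut was above wt in 10 of its 51 bins, and 9 bins were lower in mut by over 0.1. The late domains from 78.0 to 85.0 Mb, which starts at Obp1a and holds most of Dmd, and from 86.0 to 92.5 Mb, with Nr0b1 and Il1rapl1, had means of −0.0653 and −0.0697 in wt and of −0.115 and −0.139 in mut. The late domain from 57.0 to 67.5 Mb, starting at Brs3, Htatsf1, Vgll1, Cd40lg and Arhgef6, averaged −0.0801 in wt and −0.111 in mut. These 4 domains had lower means in mut on the raw scores. The remaining one of the 5 longest, from 22.0 to 35.5 Mb, starting at Klhl13, Wdr44, Gm4907, Gm4985 and Gm5934, averaged −0.134 in wt and −0.119 in mut, with mut above wt in 19 of 27 bins.

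Domain borders lay at the same places in both genotypes for the most part. Of 31 wt borders, 19 fell on the same bin edge in mut and 7 were 1 bin (0.5 Mb) away, so that 26 had a mut border within 1 bin. At the 7 borders that differed by 1 bin, the early domain was larger in mut at 3 (57.0, 153.5 and 164.5 Mb) and smaller at 4 (16, 43.0, 67.5 and 133.0 Mb). There was thus no common direction of early domains growing or shrinking in mut.

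The 5 wt borders with no such partner lay at 85.0, 86.0, 155.0, 161.0 and 162.0 Mb. A small early domain of wt at 85.0 to 86.0 Mb, with Fthl17a, a ferritin heavy chain-like gene, Tab3, which acts in NF-kappaB signalling, and Gk, the glycerol kinase gene, had mean scores of 0.0533 in wt and −0.0570 in mut. In mut it was part of a late domain from 78.0 to 92.5 Mb. The reverse was found at 161.0 to 162.0 Mb, where Scml2, a Polycomb-group gene, and Rai2 lie. This late domain of wt (−0.0294) scored 0.0373 in mut, in an early domain from 159.0 to 165.0 Mb. The wt border at 155.0 Mb, the start of an early domain of 3 Mb, had its nearest mut counterpart at 156.5 Mb. In mut, 5 borders had no wt border within 1 bin, among them that one and those of a small early domain from 108.5 to 109.5 Mb, which averaged 0.0283 in wt and 0.0226 in mut. The other two are not reported here.

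On the raw scores, steps across borders were larger in mut. The step, the mean of 2 bins on the early side minus that of 2 bins on the late side, was 0.181 ± 0.0509 in wt and 0.214 ± 0.0957 in mut (mean ± SD over the 31 wt borders), and it was larger in mut at 21 of them. Borders called in a track favour a step in that track. At the 19 borders on the same edge in both genotypes, the step was 0.197 ± 0.0469 in wt and 0.250 ± 0.0897 in mut, 1.26 times as large, and larger in mut at 15 of 19. At the 31 borders called in mut it was 0.166 in wt and 0.224 in mut, and larger in mut at 25. Over all bins the SD of mut was 1.35 times that of wt and the slope of mut on wt was 1.21. The 1.26 at the shared edges was below the ratio of the SDs. Relative to the SD of each track, the mean step there was thus not larger in mut.

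**Figure D2:**
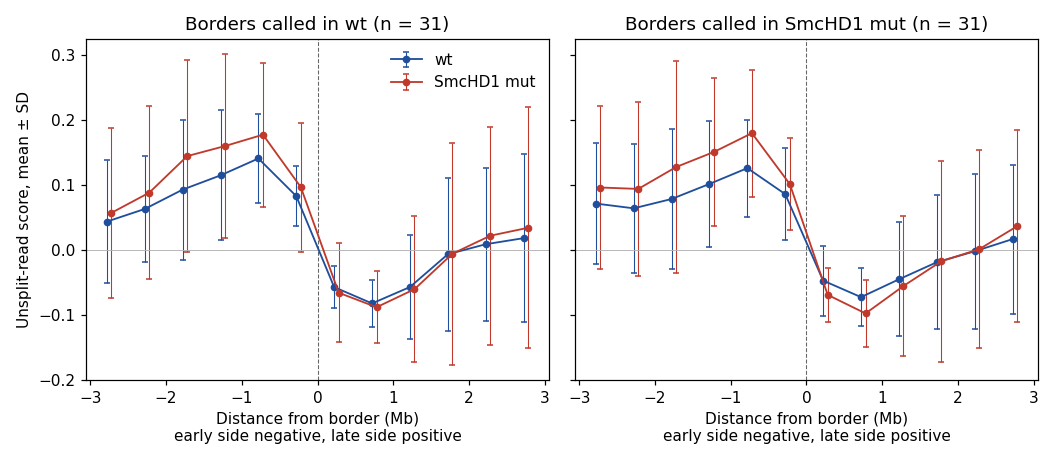
Mean unsplit-read score (points, with SD over borders as bars) of wt (blue) and SmcHD1 mut (red) against distance from the 31 borders called in wt (left) and the 31 called in mut (right), early side at negative distance. In the second bin on the early side of wt borders the mean was 0.141 in wt and 0.177 in mut, and in the second bin on the late side it was −0.0823 and −0.0881.

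On the raw scores, bins higher in mut by over 0.1 lay almost all in regions early in both genotypes and those lower by over 0.1 mostly in late ones, a pattern that was not kept when mut was scaled to wt. Of the 336 bins, 39 (11.6%) were higher in mut by over 0.1 and 25 (7.44%) were lower by over 0.1. Of the 39 higher bins, 36 were among the 148 early in both genotypes. Of the 25 lower bins, 20 were among the 163 late in both. At a limit of 0.05 the counts were 90 higher (26.8%) and 89 lower (26.5%), and at 0.2 they were 4 (1.19%) and 0. On either side of the upper limit lay the bins from 8.5 to 9.0 Mb, at 0.102, and from 102.0 to 102.5 Mb, at 0.0997. Next to the lower limit lay the bins from 88.0 to 88.5 Mb, at −0.102, and from 119.0 to 119.5 Mb, at −0.0988. Much of this count goes with the wider range of mut scores. With the mut track brought to the mean and SD of wt, 11 bins (3.27%) were higher by over 0.1 and 10 (2.98%) lower. Of the 161 bins early in wt, 7 were then higher and 7 lower, with a mean difference of −0.00438, and of the 175 late in wt 4 were higher and 3 lower, with a mean of 0.00403. The part that the scaling of the scores had in the wider range was not tested.

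The difference followed the GC content of a bin closely. No bin with a GC content at or below the median was higher in mut by over 0.1 (0 of 168), and no bin above the median was lower by over 0.1 (0 of 168). In the 84 bins poorest in GC the mean mut minus wt was −0.0619, with 19 bins lower by over 0.1. In the 84 richest it was 0.0775, with 32 bins higher by over 0.1. Across the 336 bins Pearson's r of mut minus wt with GC content was 0.625 (Spearman's rho 0.701), as a description over bins that share libraries and neighbours. It was 0.523 for the wt score itself and 0.680 for the mut score.

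The same order appeared among bins that were late in wt. Of these, the 74 in the poorest GC group differed by a mean of −0.0659 and the 12 in the richest by 0.0429. Among bins early in wt, the 10 in the poorest group differed by −0.0324 and the 72 in the richest by 0.0832. Within both classes the mean difference went from negative to positive with GC content. With the mut track brought to the mean and SD of wt, r with GC content was 0.348, and for what is left of mut after a straight-line fit on wt it was 0.479.

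Gene number went the same way. The 74 bins without a gene start averaged −0.0441, with 2 bins higher and 14 lower by over 0.1. The 63 bins with 5 or more averaged 0.0612, with 22 higher and 0 lower. Among the bins without a gene start, the 8 with GC above the median averaged 0.0574 and the 66 others −0.0564. Among bins without a gene start the sign of the mean difference thus went with GC content, though few of them were GC-rich. With mut scaled to wt, the bins without a gene start averaged −0.0199 and those with 5 or more 0.0157. Pearson's r of the difference with gene number was 0.448 on the raw scores and 0.213 after this scaling. Gene-rich chromatin is itself GC-rich, and the part of the base composition of the reads in these differences was not tested.

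**Figure D3:**
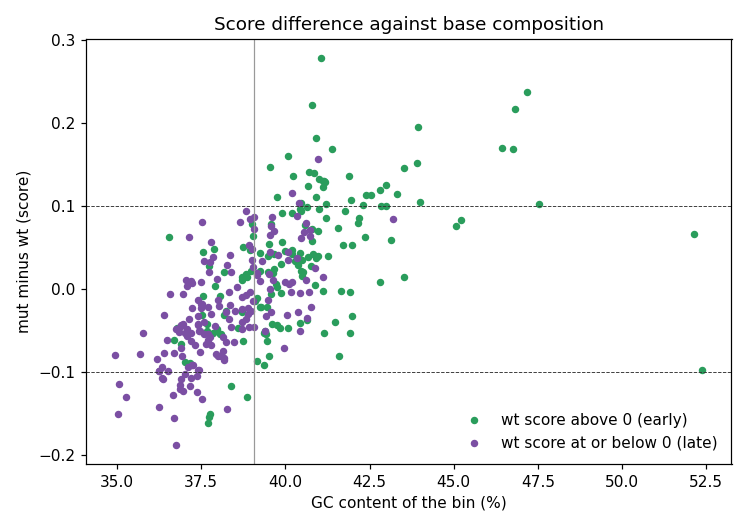
Mut minus wt score of each of the 336 bins against its GC content, with bins early in wt in green and late in wt in purple, dashed lines at 0.1 and −0.1 and a vertical line at the median GC content. All 39 bins above 0.1 lie to the right of the median and all 25 below −0.1 to its left.

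**Figure D4:**
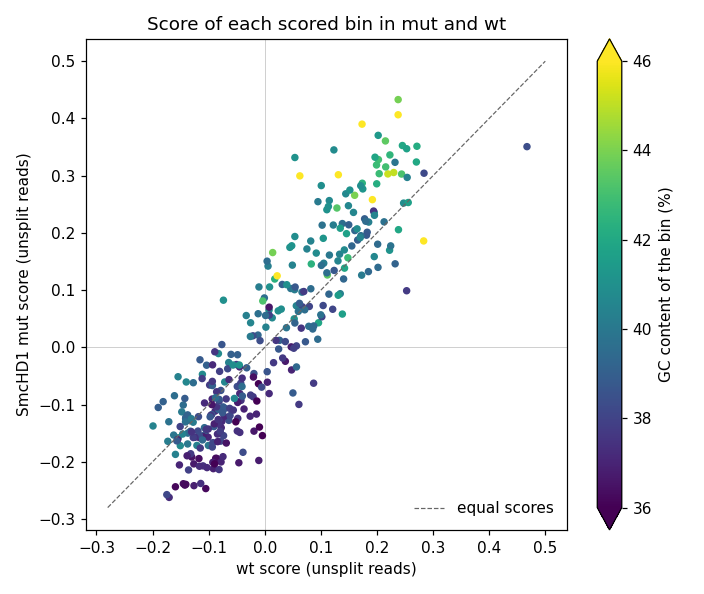
SmcHD1 mut score against wt score for the 336 bins, coloured by GC content from dark (GC-poor) to yellow (GC-rich), with a dashed line of equal scores. GC-rich bins with wt scores above 0 lie mostly above the line and GC-poor bins below it.

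The highest differences lay in early, GC-rich bins and the lowest mostly in GC-poor bins with few genes. All 10 bins with the highest difference were early in both genotypes, had a GC content of 40.1% to 47.2%, and held 73 gene starts between them, 65 of them in 3 bins, with a median of 2 per bin, as over all scored bins. Of the 10 bins with the lowest difference, 4 were early in wt and 1 in mut, their GC content was 35.0% to 38.9%, and they held 8 gene starts, with none in 5 of them. Since the bins were chosen on this difference, the values that follow are a description.

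The highest difference, 0.278, was in the bin from 52.0 to 52.5 Mb, which scored 0.0537 in wt and 0.332 in mut. It holds Gpc4 and part of Gpc3, which encode glypicans, heparan sulphate proteoglycans of the cell surface. Its neighbour from 52.5 to 53.0 Mb, where Gpc3, Ccdc160, Phf6 and Hprt start, scored 0.115 in wt and 0.256 in mut. The bins on either side scored 0.152 and 0.196 in wt and 0.275 and 0.332 in mut. In wt both bins of the pair thus scored below their flanks, whereas in mut only the second did.

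The second highest, 0.237, was in the bin of Bcor, a transcriptional corepressor of BCL6, from 12.0 to 12.5 Mb (0.0625 in wt, 0.300 in mut). The bin before it, from 11.5 to 12.0 Mb, overlaps no protein-coding gene and scored 0.131 in wt and 0.302 in mut. At 47.2% and 46.4% GC these bins were among the 7 richest of the chromosome. Another pair of bins in the same early domain, from 9.5 to 10.5 Mb, holds Dynlt3, Sytl5, Srpx, Rpgr, Otc, the ornithine transcarbamylase of the urea cycle, and Tspan7, and averaged 0.00494 in wt and 0.146 in mut.

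Very gene-dense bins were also on this side. The bin from 7.5 to 8.0 Mb, with 27 genes that include Foxp3, the transcription factor of regulatory T cells, Syp, a synaptic vesicle protein gene, Hdac6, a tubulin deacetylase gene, and Gata1, the erythroid transcription factor, scored 0.173 in wt and 0.390 in mut. The bin from 74.0 to 74.5 Mb, with 21 genes that include Flna, an actin cross-linker gene, Emd, the emerin gene of the nuclear envelope, and G6pdx, the first enzyme of the pentose phosphate pathway, scored 0.238 in wt and 0.433 in mut, the highest mut score of all. Before it, the bin from 73.5 to 74.0 Mb, with 17 genes such as Hcfc1, L1cam and Avpr2, also scored 0.238 in wt and was at 0.406 in mut. These bins were already well within the early range of wt.

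The other bins among the 10 highest were at 166.5 to 167.0 Mb (Tceanc and Egfl6, 0.123 in wt and 0.345 in mut), 163.0 to 163.5 Mb (no gene start, overlapping Ctps2, a CTP synthase gene, 0.101 and 0.283), 142.5 to 143.0 Mb (Tmem164 and Ammecr1, 0.202 and 0.370) and 51.0 to 51.5 Mb (Rap2c and Mbnl3, 0.0947 and 0.255). The lowest mut score among the 10 bins was thus 0.255, well within the early range.

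The lowest difference, −0.187, was in the bin from 132.5 to 133.0 Mb, which has no protein-coding gene and scored −0.0107 in wt and −0.198 in mut. It is the last bin of the longest late domain. The bin from 113.5 to 114.0 Mb, which overlaps Dach2, a dachshund-family transcription factor gene, scored −0.0462 in wt and −0.202 in mut. At the bin from 120.0 to 120.5 Mb, where Pcdh11x, a protocadherin gene, and H2afb3 start, the scores were −0.105 and −0.247. The bin from 89.0 to 89.5 Mb with Pet2 scored −0.0815 and −0.214, the bin from 87.5 to 88.0 Mb inside Il1rapl1 −0.00423 and −0.154, and the gene-free bin from 62.5 to 63.0 Mb −0.0389 and −0.183. Most of these were late in wt and at the late end of the range in mut.

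A different case was the early side of the border at 67.5 Mb, just before Fmr1, the gene silenced in fragile X syndrome. The bin from 67.5 to 68.0 Mb scored 0.0870 in wt and −0.0627 in mut. The gene-free bin from 68.0 to 68.5 Mb scored 0.253 in wt, the ninth highest wt score, and 0.0989 in mut. The bin of Fmr1 itself, from 68.5 to 69.0 Mb, scored 0.232 and 0.146. Here a peak of the wt track was low in mut, at a GC content of 37.7% in the first 2 bins.

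**Figure D5:**
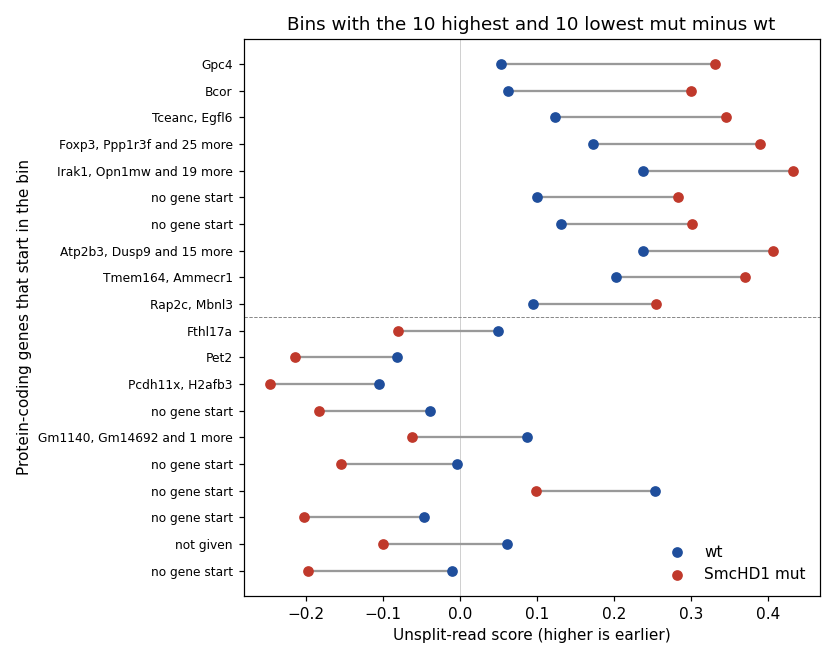
Unsplit-read scores in wt (blue) and SmcHD1 mut (red) of the 10 bins with the highest and the 10 with the lowest mut minus wt difference, each labelled by protein-coding genes that start in it (1 label is not given), with the difference falling from top to bottom. All 10 upper bins score above 0 in both genotypes, while 9 of the 10 lower bins are below 0 in mut.

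Bringing the mut track to the mean and SD of wt kept 5 of the 10 highest and 7 of the 10 lowest bins among the 10 most extreme on their side. The bins of Gpc4 and Bcor stayed higher in mut on this scale, by 0.193 and 0.160, and the gene-free bin at 68.0 Mb stayed lower. The distal tip then came out lowest, at −0.207. The bin of Mid1, a ubiquitin ligase gene that spans the pseudoautosomal border in laboratory mice, from 169.5 to 170.0 Mb, had the highest wt score of the chromosome, 0.467, and scored 0.351 in mut. The next bin, 95.5% of which is unsequenced, scored 0.283 and 0.186.

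Allele-specific scores of the same series, Z-scores from the subset of reads that could be assigned to Xa or Xi, were set beside these bins. They share reads with the unsplit tracks, and the bins over which each Z-score was centred are not stated, so this is a description. Of the 39 bins higher in mut, 36 had usable allelic scores. Among these the Xi score was higher in mut than in wt in 30 (83.3%) and the Xa score in 15 (41.7%), against 50.2% and 43.1% of all 269 bins with usable scores. Of the 25 lower bins, 20 had usable scores, and there the Xi score was lower in mut in 14 (70%) and the Xa score in 13 (65%), against 49.8% and 56.9% of all. Across the 269 bins, r of the unsplit difference was 0.357 with the Xi difference and 0.110 with the Xa difference.

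The bin of Bcor and that of Gpc4 differed in this respect. In the Bcor bin, Xi scored −1.83 in wt and 0.378 in mut, and Xa −0.305 and 0.754, all as Z-scores. In the Gpc4 bin Xi scored −1.61 in wt and −1.89 in mut, while Xa scored −0.618 and 1.45. GC content was related to the Xi difference with r = 0.308 and to the Xa difference with r = −0.0583 in these 269 bins, beside 0.707 for the unsplit difference.

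The unsplit scores also covered stretches where few reads can be assigned to an allele. Of the 336 bins, 67 had no usable allelic score in at least 1 of the 4 allele tracks, because the Z-score was beyond 3 or was a constant repeated along the track. In 5 stretches such bins were the majority, with 54 bins in all. Over these 54 bins r between the unsplit wt and mut scores was 0.870, and over the 282 others 0.892. In the stretches 3 bins (5.56%) were higher and 6 (11.1%) lower in mut by over 0.1, against 36 (12.8%) and 19 (6.74%) outside. Most of these bins belong to the largest stretch. Within the smaller ones r was 0.250 (3.0 to 5.0 Mb, 4 bins), 0.738 (113.5 to 117.5 Mb, 8 bins) and 0.443 (130.0 to 132.5 Mb, 5 bins).

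The largest of them, from 24.0 to 42.0 Mb, had 36 bins with 117 genes, 61.6% repeats and bins with up to 41.0% of unsequenced bases. Its mean score was −0.0658 in wt and −0.0441 in mut, r between the tracks was 0.937, and 10 bins were early in each genotype. Inside it lay an early domain from 35.5 to 39.0 Mb with 66 genes, whose 7 bins all scored higher in mut (0.114 and 0.213 on average). All 4 wt borders in the stretches had a mut border within 1 bin, and those at 35.5, 39.0 and 40.5 Mb were on the same edge. At 35.5 Mb the step was 0.214 in wt and 0.376 in mut.

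The stretches from 113.5 to 117.5 Mb and from 130.0 to 132.5 Mb, both inside the longest late domain, showed the reverse. Their means were −0.0850 and −0.0759 in wt and −0.174 and −0.158 in mut. Mut was below wt in every one of their 8 and 5 bins, which held 6 genes and 0 genes. The 4 bins next to the centromeric end, from 3.0 to 5.0 Mb, averaged −0.150 in wt and −0.157 in mut. The remaining stretch was a bin at 43.0 Mb that overlaps Tenm1 (−0.0856 in wt and −0.194 in mut).

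Genes that escape X inactivation lay in early bins of both lines. The 10 listed escapees were in 10 bins, all early in wt and in mut, with a median score of 0.221 in wt and 0.278 in mut. Their median difference was 0.0795, against −0.00278 over all 336 bins, and 3 of 10 bins were higher and 1 lower in mut by over 0.1, beside 11.6% and 7.44% of all bins. Of the 161 bins early in wt, 36 were higher and 5 lower by over 0.1. Among these, the 72 in the richest GC group had a median of 0.0902, with 31 (43.1%) higher and 0 lower. The median GC content of the escapee bins was 41.4%. Car5b, a mitochondrial carbonic anhydrase gene (0.111 in wt, 0.240 in mut), Kdm5c, a histone H3K4 demethylase gene (0.223 and 0.336), and Eif2s3x, a translation initiation factor gene (0.245 and 0.353), were higher, and Mid1 was lower. Differences under the limit were 0.0788 for Kdm6a, 0.0802 for Ddx3x, 0.0836 for Utp14a, 0.0729 for Firre and −0.00430 for Pbdc1. With mut scaled to wt the median difference was 0.0112, 6 of the 10 bins were higher and 4 lower, and of the calls only the lower one, Mid1, was left.

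The bin of Xist, whose RNA silences Xi, scored 0.256 in wt and 0.253 in mut, and it also holds the starts of Tsix, Jpx, Cdx4 and Chic1. The other bin of the X inactivation centre, with Ftx and Rlim, scored 0.270 and 0.324. Neither difference reached 0.1.

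The 7 listed housekeeping genes, which are silenced on Xi in normal cells, were early in both genotypes. Their median difference was 0.141, and 4 of 7 were higher and 0 lower by over 0.1, beside the same shares of all bins. These were Hprt, of purine salvage (0.115 in wt, 0.256 in mut), G6pdx, Hcfc1 and Ogt, the O-GlcNAc transferase gene (0.215 and 0.361). Pgk1, a glycolysis gene, and Atrx, a chromatin remodeller gene, differed by 0.0431 and 0.0425, and Huwe1 by −0.0210. With mut scaled to wt none of the 7 was higher or lower by over 0.1, the median difference was 0.0529, and Pgk1 and Atrx turned to −0.0332 and −0.0107. The median GC content of these bins was 40.8%. The 72 bins early in wt in the richest GC group had a raw median difference of 0.0902, with 31 (43.1%) higher by over 0.1.

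Genes of 500 kb or more lay mostly in bins that scored lower in mut. The 12 such genes, from 506 to 2257 kb long, overlapped 32 bins with a median GC content of 37.1%. Of these bins 12 were early in wt and 6 in mut, 1 was higher and 9 were lower by over 0.1 (7.44% of all bins were lower), and the median difference was −0.0573. In the 84 bins poorest in GC, 19 (22.6%) were lower by over 0.1, and the median difference was −0.0622. With mut scaled to wt, 0 of the 32 bins were higher and 3 lower by over 0.1, with a median of −0.0453. Dmd, the dystrophin gene, averaged −0.0337 in wt and −0.119 in mut over 6 bins. Il1rapl1, a synaptic receptor gene, averaged −0.0177 and −0.126 over 4 bins, Pcdh11x −0.0973 and −0.225 over 2, Tenm1, a teneurin gene, −0.0189 and −0.117 over 2, and Dach2 −0.0473 and −0.149 over 2. Of the 12 genes, 10 had a lower mean in mut. Frmpd4 (0.0818 and 0.147) and Arhgap6 (0.192 and 0.224) near the distal end had higher ones, at 39.7% and 38.9% GC, the highest of the 12.

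Multicopy families, many of them expressed in testis or placenta, differed from each other. The 135 genes lay in 45 bins, of which 8 were higher and 0 lower in mut by over 0.1, with a median difference of 0.00866. Over all bins 11.6% were higher and 7.44% lower. With mut scaled to wt 1 of the 45 was higher and 0 lower. The 34 Rhox genes, a cluster of reproductive homeobox genes in 3 early bins of the stretch from 24.0 to 42.0 Mb, had scores of 0.0141 to 0.204 in wt and 0.146 to 0.303 in mut, and all 3 bins were higher in mut, by 0.0628 to 0.152. The 3 bins with Ssx genes differed by 0.102 to 0.105. The 30 Btbd35f genes lay in 12 late bins, 11 of them in poorly covered stretches, with means of −0.147 in wt and −0.143 in mut. The copies of such families resemble each other, and reads that map to several of them can be placed wrongly in both lines.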

How the data were processed

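Repli-seq was performed on G1 and S fractions of wt and SmcHD1 mut MEFs (8 samples). The authors mapped reads with Bowtie2 to mm10, and took, in bins of 500 kb, the ratio of S-phase to G1-phase reads after normalizing for read number. Software versions are not given in the sources used here. The deposited values are a score per bin of chromosome X, read here as pooled over replicates, for unsplit reads (transformation not stated) and, as Z-scores, for Xa and Xi. Unsplit tracks were joined by bin start, and bins at 0 in both were taken to have no reads.

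Genes were counted by start from GENCODE M21, and GC and repeat content from the GRCm38.p6 sequence, whose chromosome X ends where the files do. A poorly covered stretch was one where most of 11 bins lacked usable allelic scores. No test was possible with 1 track per genotype, so bins were called at a difference over 0.1. Named genes were those of the 10 highest and 10 lowest bins, of runs of 2 or more bins beyond the 95th or 5th percentile, of the 5 longest early and late domains of wt, and of fixed lists. Members and lists were chosen with earlier results of these data known. Genes named at switched bins, and a few others, were chosen after their values were seen. A few genes that the rule names are not reported here. Domain calling was tested on simulated tracks whose domains were set longer than the shortest ones called here, so the test does not cover those. Python 3.11.15, numpy 2.4.6, pandas 2.3.3 and matplotlib 3.10.9 were used. Alternatives were other limits, smoothing, scalings and sets of bins, and, chosen after seeing the data, a GC fit.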

Additional observations from a re-analysis of the deposited data

How the results depend on the processing

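The counts of bins past the limit depended on it and on scaling. At a limit of 0.05 instead of 0.1, 90 bins were higher and 89 lower in mut, and at 0.2 the counts were 4 and 0. With the mut track scaled to the mean and SD of wt they were 11 and 10, and with the median and median absolute deviation 18 and 9. With a linear fit on GC content taken off the difference, an alternative chosen after seeing the data, 14 bins were higher and 12 lower, and 5 of the 10 highest and 6 of the 10 lowest bins kept their place. The cause was not tested beyond the construction of each alternative. The SD of mut over that of wt, 1.35 over all scored bins, was 1.34 by the median absolute deviation, 1.39 in bins with usable allelic scores, 1.37 without 1 far bin and 1.37 after a running mean of 3 bins. Of 37 alternatives for the 9 counts reported, 27 left the count within 1.5 times of its main value, a wide tolerance, and 10 did not. Within it, the number of domains in wt ranged from 24 to 41 (34 in the main setting) and in mut from 23 to 36 (32). A mut border lay within 1 bin of 26 of 31 wt borders in the main setting and without smoothing, of 19 of 23 with a running median of 5 bins and of 27 of 35 with the track medians as the limit. No paired analysis was possible because each track holds 1 value per bin, read here as pooled over the samples. Replicates were likewise not left out in turn. The read depth of a bin is unknown, so no precision is given for a single bin.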
